A study of Mus musculus with 2 samples.

Results

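Macrophages of the mouse cervix were taken as the droplets of single-cell RNA sequencing that carried complement C1q messages and almost no keratin message. A droplet is known by its barcode, and each captured transcript is counted once by a unique molecular identifier (UMI). Barcodes had to show 200 genes or more, and no more than 20% of their UMIs could be mitochondrial. Members were then selected on their counts: at least 3 UMIs of C1qa, C1qb and C1qc together, at most 2 of the squamous keratins Krt5 and Krt14, and fewer than 10 of the mucous genes Muc5b, Tff1 and Agr2. Members were thus chosen by the raw counts of these genes, and the levels of those 8 genes are given only as description. There were 350 such barcodes among 13981 that passed the first limits and 16221 deposited ones. The control library held 127 of 4760, a share of 2.67% (exact 95% interval 2.23 to 3.17). The progesterone library held 223 of 9221, or 2.42% (2.11 to 2.75), so the shares overlapped within counting error.

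The study looked for luminal progenitor cells of the cervix and their secretory descendants, and compared 2 libraries. Both came from C57BL6/129 females aged 7 to 8 weeks that were ovariectomised, which removes the main source of sex hormones, and left for 2 weeks to recover before an experiment of 15 days. Control mice received no treatment, neither injection nor pellet. Progesterone mice received estradiol (E2) in corn oil under the skin, 100 µg daily over 2 days, followed by a 25 mg pellet made to last 21 days, which releases progesterone at about 1 mg per day. Each library pooled 9 mice, so a group has 1 value, and treatment, estradiol priming, oil injection, pellet and library cannot be told apart. No test between the groups was possible. Intervals in this text are exact 95% intervals that cover counting error only.

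Tissue macrophages engulf dying cells and debris and display peptides to T helper cells on class II molecules of the major histocompatibility complex. C1q, the recognition part of the classical complement pathway, is made mainly by macrophages and marks engulfed material. In many tissues, long-lived resident macrophages carry scavenger receptors such as Lyve1, Folr2, Cd163 and Mrc1, whereas cells with much class II and Ccr2 are often replaced from blood monocytes. In the cervix macrophages take part in remodelling of the matrix and in defence.

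Members held 216833 UMIs in the control and 374075 in the progesterone library, with medians of 1390 and 1076 UMIs and of 735 and 495 genes per barcode. Progesterone members were the shallower ones: 108 of 223 had under 1000 UMIs, against 43 of 127 in the control. The libraries shared 19 of the deposited barcodes and 0 members. Levels are summed UMIs of the members, scaled to 1000000 UMIs of that library's members (CPM). They come from the 3′ ends of transcripts and are not divided by gene length.

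Within the rule, the median C1q count was 16 in control members, with a range of 3 to 91, and 14 in progesterone members, with a range of 3 to 194. At the lower edge, 7 control and 23 progesterone members had exactly 3 C1q UMIs, and 9 and 29 barcodes had 2 and stayed outside. Cd74, the class II invariant chain, stood at 17391 and 8981 CPM in the barcodes with 3 C1q UMIs and at 15933 and 4023 CPM in those with 2. No keratin UMI was found in 70 control and 132 progesterone members, and 14 and 23 had 2, while 6 and 14 barcodes had 3 and stayed outside. Mucous UMIs separated the libraries: 6 control members had any, with 1 at most, against 97 progesterone members with up to 6. With 10 or more mucous UMIs, 0 control and 23 progesterone barcodes that met the keratin limit stayed outside.

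Markers other than the C1q genes of the rule went with the label. Of 24 macrophage identity genes, C1qa, C1qb and C1qc among them, 23 had at least 20 UMIs. Over all genes 3782 of 31053 had as many. Without the C1q genes the identity list summed to 41419 and 50340 CPM in members, against 569 and 244 CPM in squamous barcodes. The colony stimulating factor receptor Csf1r had 236 control and 246 progesterone UMIs, or 1088 and 658 CPM, against 0.755 and 0.784 CPM in squamous barcodes, and was 1.66 times (1.38 to 1.99) higher in the control. Lyz2, which encodes lysozyme, had 1239 and 1749 UMIs and was 1.22 times (1.14 to 1.32) higher in the control, while Adgre1, which encodes the F4/80 antigen, had 37 and 100 UMIs and was 1.57-fold (1.06 to 2.35) higher with progesterone. Dendritic cell markers summed to 314 and 251 CPM, of which Itgax made up 58.6%. Of the 13 dendritic cell genes 4, Xcr1, Clec9a, Cd209a and Ccr7, were at 0 in both libraries. The rest had UMIs in at least 1 library, and Batf3 among them stood at 50.7 and 64.2 CPM. The list reached 878% and 1112% of its squamous level, so some dendritic cell RNA was present. T and NK cell markers summed to 134 and 90.9 CPM, of which Il7r made up 74.6%, and 10 of the 14, Cd3e, Trac and Nkg7 among them, were at 0 in both libraries. The 8 mast cell and basophil genes were also at 0. In squamous barcodes T and NK cell markers summed to 27.2 and 7.84 CPM. B cell markers summed to 231 and 556 CPM in members, of which Ighm made up 65.9%, and to 2.45 and 3.55 CPM in squamous barcodes. Their sum in members was 2.41-fold (1.76 to 3.35) higher with progesterone. Some B cell RNA and T or NK cell RNA was thus present too. Neutrophil RNA was present: its 12 markers summed to 2578 and 3972 CPM, against 791 and 357 CPM in squamous barcodes. S100a9 made up 49.5% of these UMIs, 9 of the markers had at least 20 UMIs, and only Ly6g was at 0 in both libraries.

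Class II genes were the main messages of these cells and were higher in the progesterone library. Cd74 had 4071 control and 10374 progesterone UMIs, or 18775 and 27732 CPM, a ratio of 1.48 (1.42 to 1.53). The α chain gene H2-Aa had 995 and 3335 UMIs, 4589 and 8915 CPM, a ratio of 1.94 (1.81 to 2.09). Its partner H2-Ab1 had 1646 and 3837 UMIs, 7591 and 10257 CPM, a ratio of 1.35 (1.28 to 1.43). The β chain gene H2-Eb1 had 940 and 3272 UMIs, 4335 and 8747 CPM, a ratio of 2.02 (1.88 to 2.17). All 4 were higher with progesterone, and none of the intervals reached 1. In squamous barcodes of the same libraries these 4 genes stood at 2.64 to 11.6 CPM in the control and 7.63 to 21.0 CPM with progesterone.

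Promoters of class II genes share a set of short elements, among them the Y box, which is bound by the factor NF-Y. The form CTGATTGG and its reverse complement CCAATCAG were looked for on both strands of the RefSeq promoter windows of GRCm38.p6, from 250 bases before to 50 after the start. Of 32851 windows 1346 held it, or 4.10%. In the antigen presentation list 18 of 24 genes had a window, and 8 of them held the motif. These were H2-Aa, H2-Eb1, H2-Eb2, H2-Oa, the class I genes H2-D1 and H2-K1, Psmb9 and Tap1. The windows of Psmb9 and Tap1, which lie head to head, overlap, and their matches are the same 8 bases. A match describes the letters and is not a binding site. The 250 bases before the start are shown for H2-Aa and H2-Eb1, the class II genes with the widest difference between the libraries, with the motif in capitals. That of H2-Aa lies at chr17:34287824-34288073 on the minus strand, and its motif begins 51 bases before the start. That of H2-Eb1 lies at chr17:34305617-34305866 on the plus strand, and its motif begins 62 bases before the start.
H2-Aa: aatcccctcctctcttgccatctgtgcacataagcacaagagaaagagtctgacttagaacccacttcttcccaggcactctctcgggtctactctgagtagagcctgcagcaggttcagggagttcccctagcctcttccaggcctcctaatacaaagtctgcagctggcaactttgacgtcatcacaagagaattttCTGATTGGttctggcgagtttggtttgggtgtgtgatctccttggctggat
H2-Eb1: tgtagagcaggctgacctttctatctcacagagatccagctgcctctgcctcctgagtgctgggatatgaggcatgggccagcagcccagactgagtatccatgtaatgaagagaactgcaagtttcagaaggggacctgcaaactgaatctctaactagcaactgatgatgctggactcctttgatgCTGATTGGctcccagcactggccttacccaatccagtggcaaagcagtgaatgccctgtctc

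Among 1506 genes with at least 50 UMIs over both libraries, 55 (3.65%) were at least 2-fold higher and 122 (8.1%) at least 2-fold lower in the progesterone library. Higher genes thus made up 31.1% of those past 2-fold. This split depended on scaling: it was 48.1% when mitochondrial, ribosomal and the 20 most abundant genes were left out of the totals, and 58.6% with median-of-ratios factors. Over the 3782 genes with at least 20 UMIs the median log2 ratio was −0.23, with 34.6% above 0 and 65.4% below. The first rescaling moved that median to −0.07 and the second to −0.0088. With the second, the log2 ratio of Lyz2 was −0.068 in place of −0.29. Intervals of ratios do not cover the choice of scaling, so those that only just leave out 1 hold for CPM of all member UMIs.

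**Figure D1:**
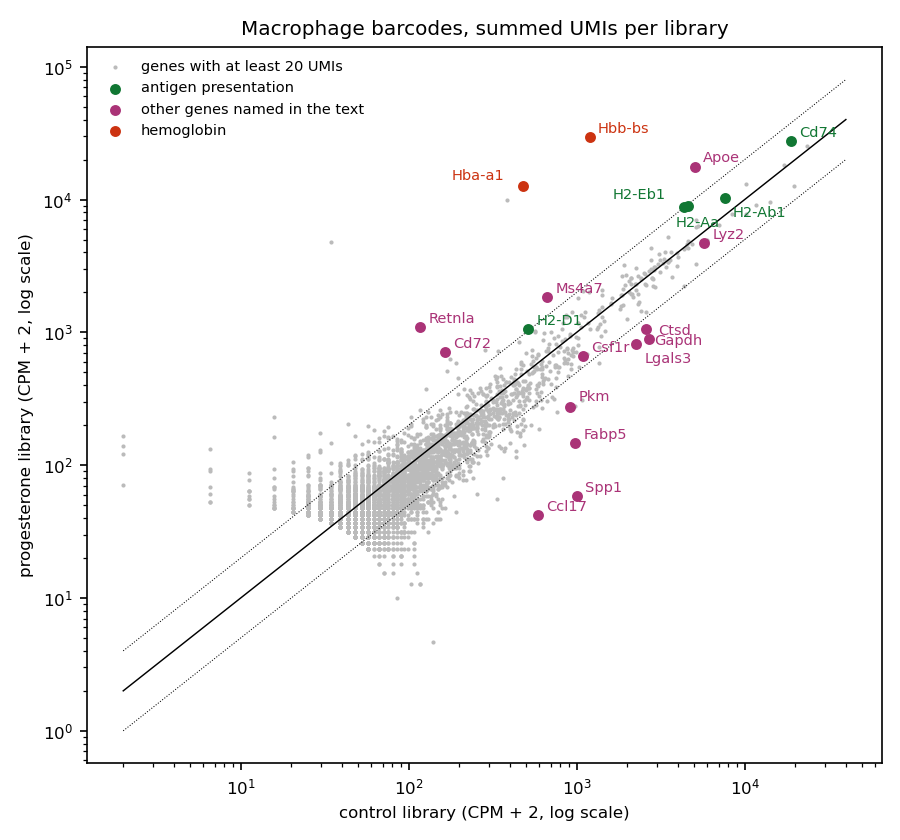
Summed level of each gene in macrophage barcodes of the control library (x axis) and the progesterone library (y axis), in CPM plus 2 on log axes, for 3782 genes with at least 20 UMIs; the solid line marks equal levels and the dotted lines 2-fold. Class II genes lie above the solid line among the highest genes, Apoe lies at 5059 and 17673 CPM, and the hemoglobin genes lie far above it.

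The antigen presentation list had 17 genes with at least 20 UMIs, 13 above 0 and 4 below, where 34.6% of all genes were above. Its median log2 ratio was 0.34 against −0.23 over all genes. Of the 16 with at least 50 UMIs, 2 were at least 2-fold higher, H2-Eb1 and H2-D1, and 0 at least 2-fold lower. Over all genes 3.65% were higher and 8.1% lower by as much. H2-D1, a class I heavy chain that serves killer T cells, had 111 control and 395 progesterone UMIs, a ratio of 2.06 (1.67 to 2.57), and stood at 774 and 1280 CPM in neutrophils. H2-K1, the other classical class I chain, had a ratio of 1.57 (1.33 to 1.87) on 187 and 508 UMIs, and their partner B2m 1.42 (1.19 to 1.69). Members of the loading step were nearer to equal. H2-DMa, which exchanges peptides on class II, had a ratio of 0.978 (0.786 to 1.22), and its log2 sign changed with the setting. Ciita, the master regulator of class II transcription, had 65 and 91 UMIs and a ratio of 0.812 (0.584 to 1.13), so a difference was not detectable with these UMIs. Cd86, a costimulatory ligand, had 25 and 35 UMIs and a ratio of 0.812 (0.472 to 1.41). Close relatives among H2 genes share sequence, and how reads that fit several of them were counted is not given in the sources used here.

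**Figure D2:**
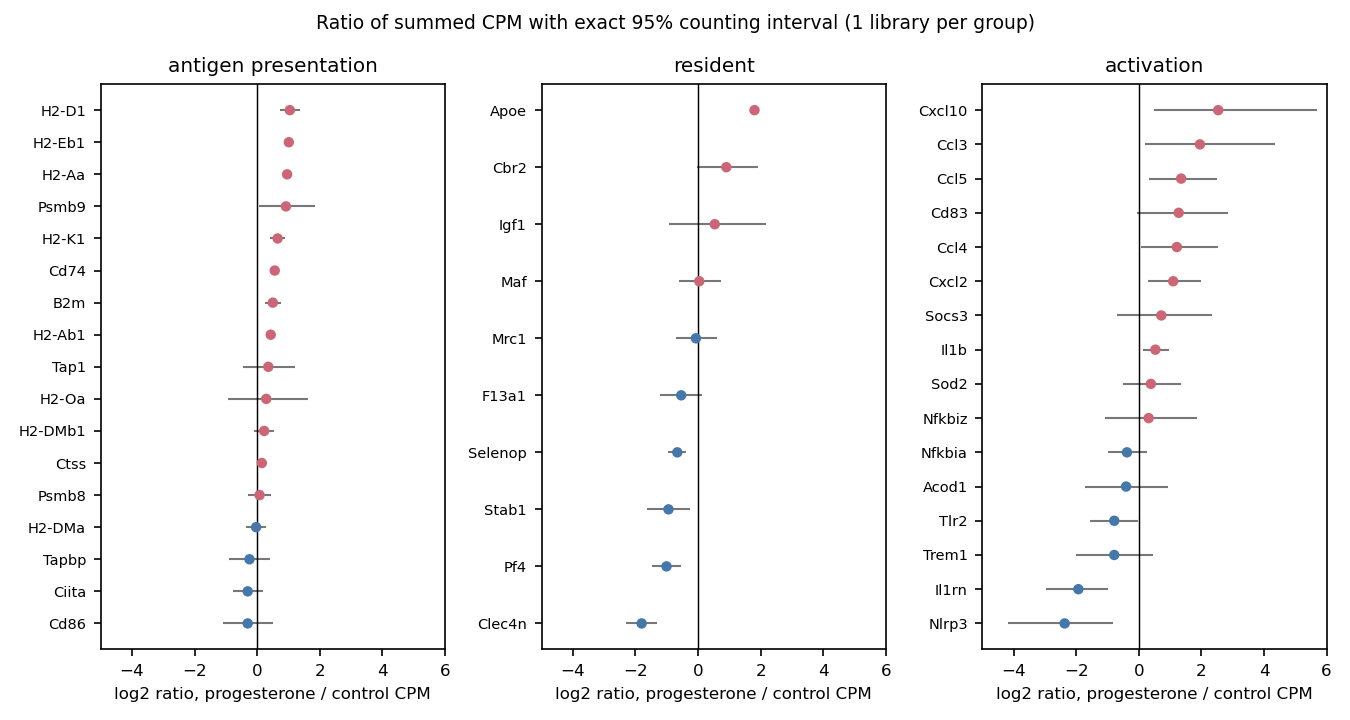
Ratio of progesterone over control CPM in macrophage barcodes, on a log2 axis, for genes with at least 20 UMIs in the antigen presentation, resident and activation lists; dots are ratios (red above 0, blue below) and bars exact 95% counting intervals. H2-D1, H2-Eb1 and H2-Aa lead the first list, Apoe stands apart in the second at a ratio of 3.49, and the third holds genes on both sides with wide bars.

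Counted barcode by barcode, after each was thinned to 1000 UMIs and the shallower 43 control and 108 progesterone members were left out, the class II chains H2-Aa, H2-Ab1 and H2-Eb1 together had a median of 14 UMIs in 84 control members and 32 in 115 progesterone members. The ranges, 0 to 56 and 0 to 68, overlapped nearly throughout. At least 3 class II UMIs were found in 75 of 84 control members, or 89.3% (80.6 to 95), and in 102 of 115 progesterone members, or 88.7% (81.4 to 93.8). The share of squamous barcodes with as many was 0.125% and 0.126%. Both shares were near their upper end and their intervals overlapped, so they show little of a difference in level. Across barcodes of 1 library, which share its handling and free RNA, class II and Cd74 counts had a Spearman rho of 0.84 in 84 control and 0.82 in 115 progesterone barcodes.

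**Figure D3:**
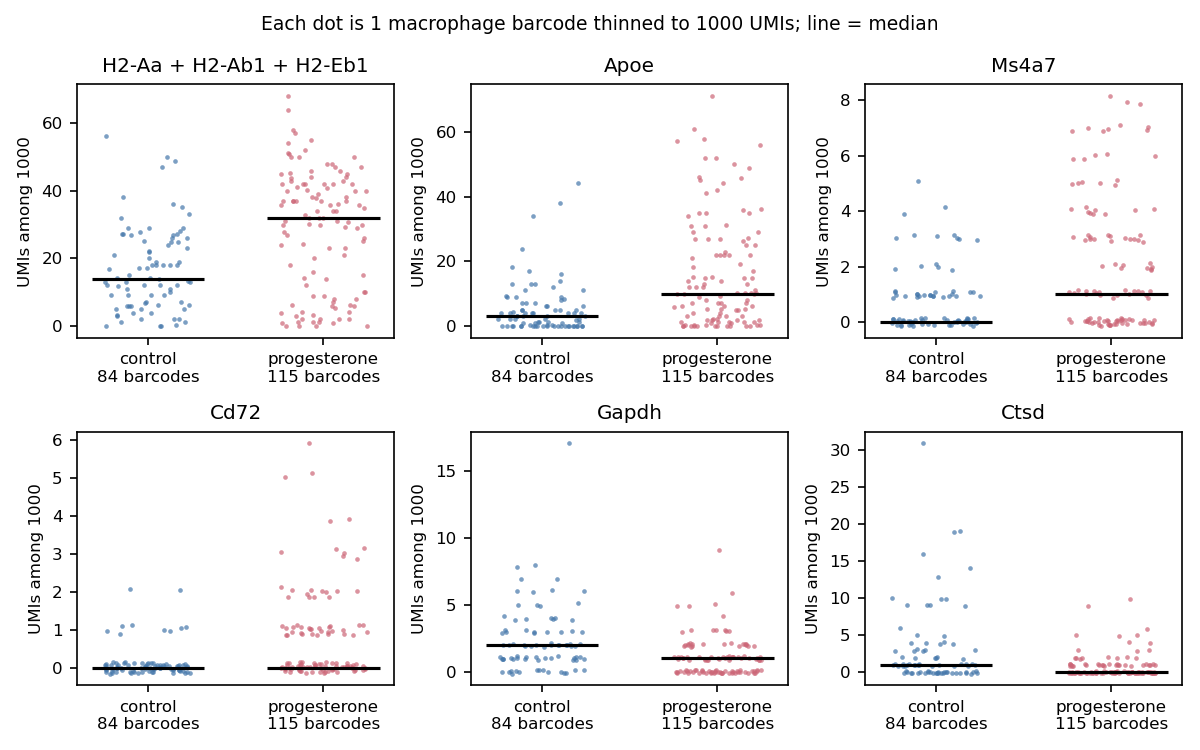
UMIs of the class II chains, Apoe, Ms4a7, Cd72, Gapdh and Ctsd among 1000 UMIs of each macrophage barcode (y axis), for 84 control and 115 progesterone barcodes; each dot is a barcode and the line its library's median. The class II median is 14 in control and 32 in progesterone barcodes and the Apoe median 3 and 10, and the ranges overlap for all 6.

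Depth differed between the libraries, so ratios were also taken within 3 ranges of depth: under 1000 UMIs (43 control and 108 progesterone members), 1000 to under 2000 (46 and 46) and 2000 or more (38 and 69). The H2-Aa ratio was 2.16, 1.64 and 2.12 in these ranges, that of H2-Eb1 1.68, 1.98 and 2.19, that of H2-Ab1 1.15, 1.37 and 1.44, and that of Cd74 1.23, 1.53 and 1.58. All 12 values lay above 1, and 11 of the intervals did. That of H2-Ab1 under 1000 UMIs was 0.996 to 1.33.

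Apoe, a lipid carrier that tissue macrophages secrete, had 1097 control and 6611 progesterone UMIs, or 5059 (4764 to 5368) and 17673 (17250 to 18104) CPM, and was 3.49-fold (3.28 to 3.73) higher with progesterone. Its gene lies at chr7:19696109-19699188 on the minus strand. Per 1000 UMIs the median was 3 in control and 10 in progesterone members, and the highest barcodes had 44 and 71. The Apoe ratio was 3.1, 2.85 and 3.84 in the 3 depth ranges. Apoe was also higher outside macrophages: squamous barcodes had 236 and 1904 CPM, an 8.07-fold difference. Squamous markers other than Krt5 and Krt14 reached 1.40% of their squamous level in control members and 4.72% in progesterone members. Members were chosen for low Krt5 and Krt14, so these shares are no independent measure of squamous RNA. The part of such RNA in the Apoe ratio was not tested.

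Ms4a7, a macrophage surface protein of the membrane-spanning 4A family, had 144 and 693 UMIs and was 2.79-fold (2.33 to 3.36) higher with progesterone. It was found in 45.2% (34.3 to 56.5) of control and 63.5% (54.0 to 72.3) of progesterone members after thinning, and in 44.9% and 65.5% before it. Of thinned squamous barcodes, whose median depth before thinning was 5996 and 5517 UMIs, 0.0417% and 0.0506% had one. Outside the rule for naming genes, and chosen after the values were seen, Cd72, Slamf9 and H2-M2 behaved likewise. Cd72, a receptor of B cells and macrophages that dampens signalling, had 35 and 266 UMIs, a ratio of 4.41 (3.09 to 6.46), and was found in 11.9% (5.86 to 20.8) and 44.3% (35.1 to 53.9) of thinned members. The unthinned Cd72 shares were 22% and 42.2%. Its ratio was 1.28, 4.92 and 8.05 in the 3 depth ranges, so the difference was seen in the deeper members. B cell markers were also higher in progesterone members, and the part of B cell RNA in the Cd72 ratio was not tested. Slamf9 had 38 and 236 UMIs, a ratio of 3.60 (2.55 to 5.21), and H2-M2, a nonclassical class I gene, had 9 and 76, a ratio of 4.89 (2.45 to 11.1). In squamous barcodes Cd72, Slamf9 and H2-M2 all stood at 1.07 CPM or less.

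Resident genes other than Apoe were scarce. Of 23 listed genes in the files 11 had at least 20 UMIs, 4 above 0 and 7 below, a split near that of all genes, of which 65.4% were below. The median log2 ratio was −0.54 against −0.23 over all genes. Of 10 with at least 50 UMIs, Apoe was at least 2-fold higher and Clec4n and Pf4 at least 2-fold lower, beside 3.65% and 8.1% of all genes. The summed list was 2.36-fold (2.24 to 2.48) higher, opposite in sign to the median, because Apoe made up 82.9% of its UMIs. The median also changed with the gene filter: it was 0.049 with no minimum of UMIs, and 0.006 when members with any mucous UMI were left out.

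Clec4n, the gene of the fungal receptor Dectin-2, had 105 control and 52 progesterone UMIs and was 3.48 times (2.48 to 4.96) higher in the control. Pf4, a chemokine stored in platelets and made by resident macrophages, had 85 and 73 UMIs and was 2.01 times (1.45 to 2.79) higher there. Selenop, a selenium transport protein, was 1.58 times (1.30 to 1.93) higher in the control on 199 and 217 UMIs. The mannose receptor gene Mrc1, with 34 and 56 UMIs, had a ratio of 0.955 (0.613 to 1.51), and the transcription factor gene Maf 1.03 (0.651 to 1.65).

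The scavenger receptors that define resident macrophages elsewhere were nearly missing. Lyve1, the hyaluronan receptor, had 1 control and 16 progesterone UMIs in 1 and 3 barcodes, Folr2 had 2 and 6 UMIs, Cd163 1 and 5, Timd4 0 and 5, and Vsig4 0 in both. At least 1 UMI of Lyve1, Folr2, Cd163 and Timd4 together was found in 1 of 84 thinned control members, or 1.19% (0.0301 to 6.46), and 4 of 115 progesterone members, or 3.48% (0.956 to 8.67).

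Most of these resident UMIs in the progesterone library sat in a handful of barcodes, which also held all Retnla. Retnla, which encodes the secreted factor RELMα of alternatively activated macrophages, had 25 control and 411 progesterone UMIs, or 115 and 1099 CPM, a ratio of 9.53 (6.36 to 14.9). All 25 control UMIs came from 1 barcode. The 411 progesterone UMIs came from 6 barcodes with 119, 114, 65, 41, 39 and 33. The libraries thus differed by 1 against 6 barcodes, 1.19% (0.0301 to 6.46) and 5.22% (1.94 to 11) of thinned members, and these intervals overlapped. Before thinning the Retnla shares were 0.787% and 2.69%. With members limited to those with no keratin UMI the log2 ratio turned to −0.15.

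Barcodes with at least 3 Retnla UMIs, a limit chosen with the values known, were compared with the other 217 progesterone members. The 6 barcodes held all 16 Lyve1 UMIs, all 14 of the eotaxin Ccl24, all 11 of the ficolin Fcna and all 5 of Cd163. They also held 40 of 44 UMIs of F13a1, a coagulation factor subunit, 16 of 17 of the lectin receptor Clec10a, 35 of 56 of Mrc1, 43 of 73 of Pf4, 64 of 94 of the chemokine Ccl6 and 47 of 68 of Fn1, which encodes fibronectin. Class II and lipid messages went the other way. Cd74 stood at 6228 CPM in the 6 barcodes and 28798 in the others, H2-Aa at 3737 and 9172, and Apoe at 3680 and 18366. Cd72 had 0 of 266 UMIs there and Ms4a7 1 of 693. The single control Retnla barcode, of 1056 UMIs, held the 1 Lyve1 UMI, the 3 Fcna UMIs and 9 of 81 Ccl6 UMIs, and 1 Cd74 UMI of 4071. Without these barcodes the H2-Aa log2 ratio between the libraries was 0.99 in place of 0.96, and that of Apoe 1.86 in place of 1.80.

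**Figure D4:**
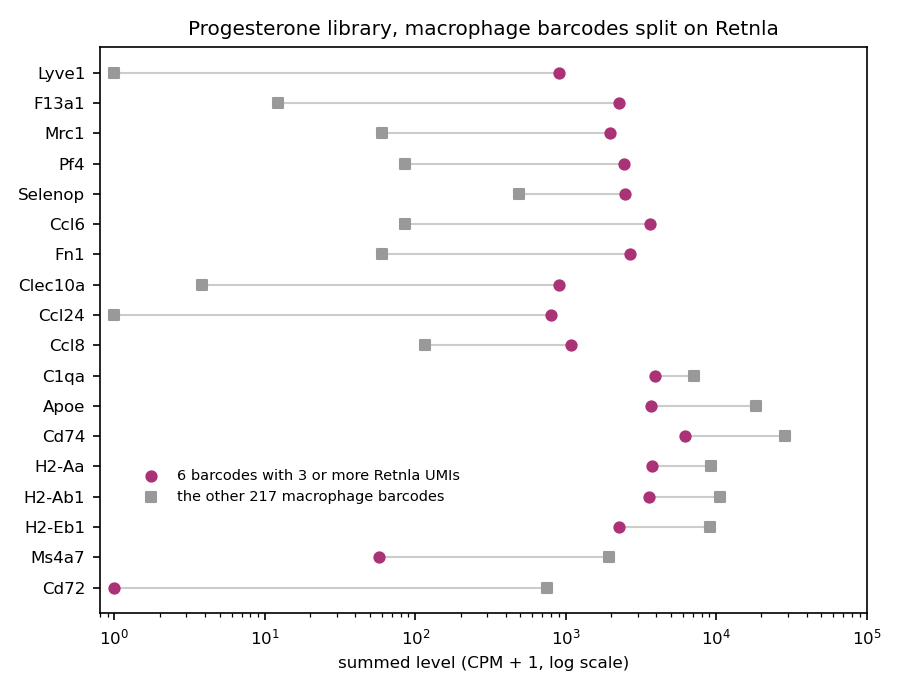
Summed level (x axis, CPM plus 1, log scale) of 18 genes in progesterone macrophage barcodes with at least 3 Retnla UMIs (6 barcodes, circles) and in the other 217 (squares). Lyve1, F13a1, Mrc1 and Ccl24 are higher in the 6 barcodes, and Apoe, Cd74, the class II chains, Ms4a7 and Cd72 are lower.

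Most other genes of the alternative state were lower in the progesterone library. The list had 8 genes with at least 20 UMIs, 2 above 0 and 6 below, where 65.4% of all genes were below, and a median log2 ratio of −1.12 against −0.23. Of 7 with at least 50 UMIs, 1 was at least 2-fold higher and 3 at least 2-fold lower, beside 3.65% and 8.1% of all genes. Ccl17, a chemokine for T helper cells, had 127 control and 15 progesterone UMIs and was 14.6 times (8.53 to 26.9) higher in the control, but 35.4% of the control UMIs sat in 1 barcode and all 15 progesterone UMIs in another. Ccl17 was found in 9 control members and 1 progesterone member. Fn1 had 104 and 68 UMIs and was 2.64 times (1.93 to 3.64) higher in the control, 5.06 times without the leading barcode of each library, and 8.03 times without the Retnla barcodes. Arg1, the arginine-degrading enzyme, had 30 UMIs and 1, in 8 barcodes and 1, and in squamous barcodes it stood at 147 and 19.2 CPM. At least 1 Arg1 UMI was found in 5.95% and 0.870% of thinned members and in 7.39% and 1.01% of squamous barcodes. Of the 30 control UMIs, 16 sat in the 11 control barcodes with at least 3 UMIs of Spp1. The monocyte attractant Ccl8 was on the other side, with 3 and 60 UMIs in 2 and 11 barcodes, a ratio of 11.6 (3.78 to 57.8). At least 1 Ccl8 UMI was found in 2.38% (0.290 to 8.34) and 3.48% (0.956 to 8.67) of thinned members and in 1.57% and 4.93% before thinning, and 19 of the 60 UMIs sat in the 6 Retnla barcodes.

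Most genes of lipid handling and the phagosome were lower in the progesterone library. Of 19 genes with at least 20 UMIs 4 were above 0 and 15 below, where 65.4% of all genes were below, and the median log2 ratio was −0.72 against −0.23. Of 18 with at least 50 UMIs 2 were at least 2-fold higher, Apoe and Cd9, and 7 at least 2-fold lower, beside 3.65% and 8.1% of all genes. The summed list had a ratio of 1.27 (1.22 to 1.31), again opposite to its median, with 54.6% of its UMIs from Apoe. Ctsd, a protease of the lysosome, had 586 control and 331 progesterone UMIs and was 3.05 times (2.66 to 3.51) higher in the control. Lgals3, the gene of galectin 3, had 489 and 304 UMIs and was 2.78 times (2.40 to 3.21) higher there, and Ctsb, another lysosomal protease, 1.83 times (1.62 to 2.07). The TAM receptor gene Axl had 101 and 76 UMIs and was 2.29 times (1.69 to 3.13) higher in the control. Trem2, a lipid receptor, had 75 and 92 UMIs and a ratio of 0.711 (0.518 to 0.978). Cd9, a tetraspanin, had 13 and 68 UMIs and was 3.03-fold (1.66 to 5.98) higher with progesterone.

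Spp1, the gene of osteopontin, had 217 control and 21 progesterone UMIs and was 17.8 times (11.4 to 29.4) higher in the control. One control barcode held 57.6% of its UMIs, and without the leading barcode of each library it was 11.3 times higher. At least 1 Spp1 UMI was found in 20.2% (12.3 to 30.4) of control and 4.35% (1.43 to 9.85) of progesterone members after thinning, against 0.417% and 0.0759% of squamous barcodes; unthinned, the member shares were 22% and 4.93%. With the limit of 3 UMIs used for Retnla, again chosen with the values known, 11 control barcodes held 194 of the 217 Spp1 UMIs. They had Lgals3 at 5106 CPM against 1788 in the other control members, Gapdh at 4517 against 2271 and H2-Aa at 2127 against 4993. The 11 barcodes were also deeper, with a median of 2711 UMIs against 1390 over all control members. In the 3 depth ranges control members had Lgals3 at 967, 1629 and 2954 CPM. Gapdh stood at 1903, 2051 and 3073 CPM there and H2-Aa at 4305, 5595 and 4102. The part of depth in this contrast was not tested.

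Fabp5, a fatty acid carrier, had 211 and 54 UMIs and was 6.74 times (4.98 to 9.27) higher in control members. Squamous barcodes had far more of it, 6255 CPM in the control and 311 with progesterone, and 70.6% and 20.9% of thinned squamous barcodes had a UMI, against 28.6% and 9.57% of members. Before thinning the member shares were 34.6% and 14.3%. The same order between the libraries was seen in squamous barcodes for Lgals3, at 1182 and 490 CPM, for Mif, at 2316 and 918, and for Gapdh, at 1787 and 648. Neutrophils of the same libraries, which numbered 189 and 293 barcodes, had Gapdh at 2498 and 2006 CPM and Lgals3 at 908 and 1001. Whether free squamous RNA had a part in these member ratios was not tested.

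Depth bore on these genes too. In the 3 depth ranges the Fabp5 ratio was 0.568 (0.298 to 1.10), 0.657 (0.334 to 1.26) and 0.0392 (0.0204 to 0.0689), so its interval left out 1 only in the deepest members. The Ctsd ratio was 0.899, 0.318 and 0.270, that of Gapdh 0.773, 0.576 and 0.294, and that of Lgals3 1.32, 0.660 and 0.203. In members under 1000 UMIs the interval of these 3 genes reached 1, at 0.627 to 1.30, 0.559 to 1.08 and 0.869 to 2.05. In members of 2000 UMIs or more Lgals3 stood at 2954 CPM in the control and 599.9 with progesterone.

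**Figure D5:**
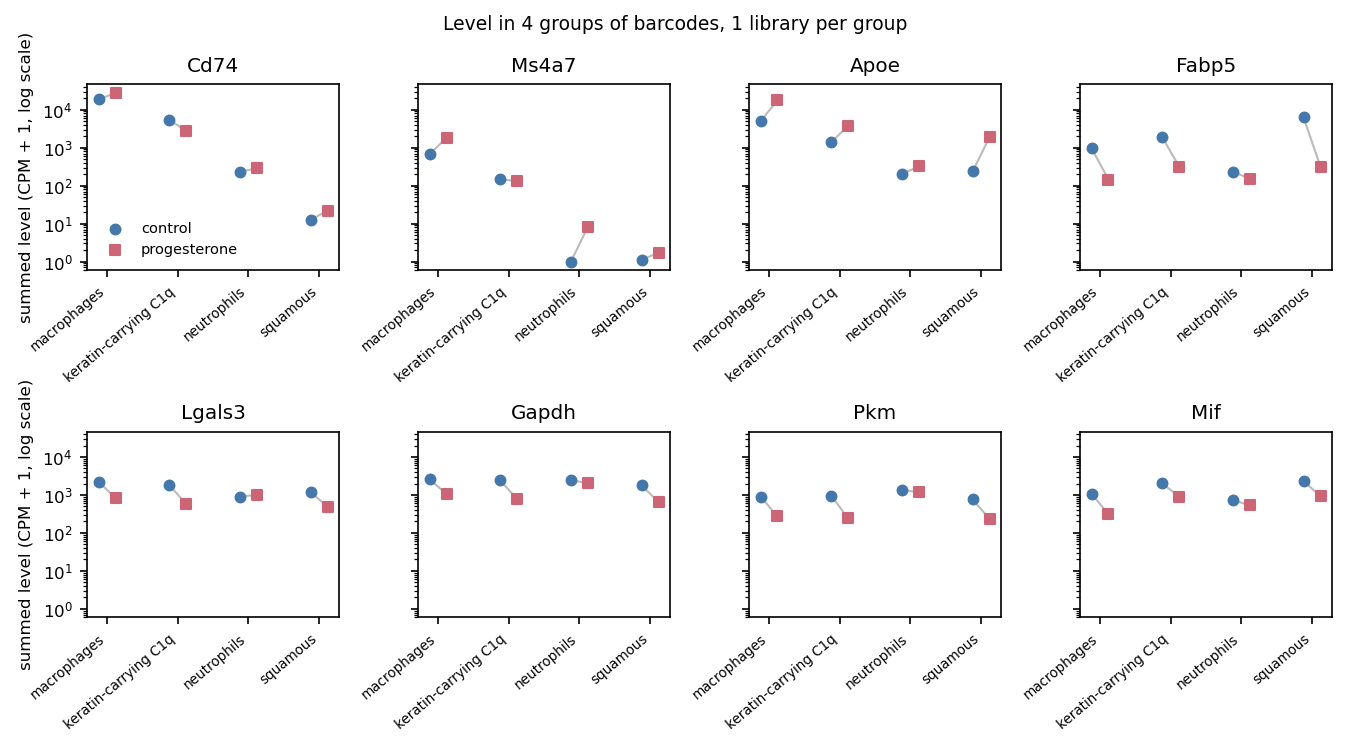
Summed level (y axis, CPM plus 1, log scale) of 8 genes in macrophages, in C1q barcodes that carried keratin RNA, in neutrophils and in squamous barcodes, for the control (circles) and progesterone (squares) libraries. Cd74 and Ms4a7 were highest in macrophages, Apoe was higher with progesterone in all 4 groups, and Fabp5, Pkm, Gapdh and Mif were lower with progesterone in all 4.

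Compared with the 26 control and 136 progesterone C1q barcodes that carried at least 3 keratin UMIs and met the mucous limit, the members held more macrophage RNA. Cd74 stood at 18775 and 27732 CPM in members and at 5532 and 2720 CPM in keratin-carrying barcodes. The order of the libraries was opposite there. Ms4a7 was at 145 and 132 CPM in the keratin-carrying barcodes, against 664 and 1853 CPM in members. Apoe was higher with progesterone in both, by 2.75-fold in the keratin-carrying ones.

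Activation genes were scarce. Of 30 listed genes 16 had at least 20 UMIs, 10 above 0 and 6 below, where 34.6% of all genes were above. The median log2 ratio was 0.44 against −0.23 over all genes, and it turned to −0.23 when members with any mucous UMI were left out and to −0.050 with no minimum of UMIs. Of 6 with at least 50 UMIs, 2 were at least 2-fold higher, Cxcl2 and Ccl5, and 0 lower, beside 3.65% and 8.1% of all genes. The list summed to 1522 CPM in the control and 1692 with progesterone, a ratio of 1.11 (0.972 to 1.27), so no difference in the sum was detectable at this depth. Nos2 and Il6, classical products of inflammatory macrophages, and the anti-inflammatory cytokine gene Il10 were at 0 in both libraries.

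Il1b, the interleukin 1 beta gene, had 70 control and 174 progesterone UMIs, a ratio of 1.44 (1.09 to 1.93). Neutrophils had it at 6823 and 7046 CPM, against 323 and 465 in members, and 10 control and 15 progesterone members had at least 10 UMIs of the neutrophil genes S100a8 and S100a9. Without those members the Il1b log2 ratio was 0.13 in place of 0.52, and that of the neutrophil attractant Cxcl2 turned from 1.06 to −0.83. Cxcl2 rested on 16 and 59 UMIs in 9 and 10 barcodes. Ccl5, a chemokine for T cells, had 10 and 44 UMIs in 4 and 14 barcodes, a ratio of 2.55 (1.26 to 5.68). Cxcl10 had 2 and 20 UMIs in 2 and 5 barcodes. Lower with progesterone were Il1rn, the interleukin 1 receptor antagonist, which had 31 and 14 UMIs and was 3.82 times (1.97 to 7.77) higher in the control, and Nlrp3, the inflammasome sensor, with 15 and 5 UMIs, 5.18 times (1.79 to 18.2) higher there. Tlr2, a receptor for bacterial lipoproteins, had 31 UMIs in each library and was 1.73 times (1.01 to 2.93) higher in the control. Its log2 ratio moved from −0.79 to −0.0021 when members were limited to those with no keratin UMI.

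RNA of other cells moved with the libraries. The hemoglobin genes Hbb-bs, Hbb-bt, Hba-a1 and Hba-a2 led the higher genes. They had 452 UMIs in control and 21237 in progesterone members, 0.208% and 5.68% of all member UMIs. Only 1 control and 7 progesterone barcodes had 10 or more, and 6 progesterone barcodes held 99.2%. With those barcodes left out, 59 genes were at least 2-fold higher and 98 at least 2-fold lower. Luminal markers other than the mucous genes of the rule summed to 69.2 CPM in control and 658 in progesterone members. Among them Krt18 had 0 and 51 UMIs, at least 9.85-fold higher against a floor of 3 UMIs per library, and Wfdc2 had 3 and 86. Squamous markers other than Krt5 and Krt14 summed to 221 and 380 CPM. Fibroblast markers stood at 9.22 and 275 CPM, of which Dcn had 1 and 49 UMIs, 98.0% of the progesterone ones in 1 barcode. Their part in the member ratios was not tested. With the hemoglobin barcodes left out, the log2 ratio was 1.07 for H2-Aa and 1.90 for Apoe. With members with any mucous UMI left out, it was 0.93 and 1.69. In that last setting the antigen presentation median was 0.37 in place of 0.34. The activation median was −0.23 in place of 0.44, and the monocyte median −0.68 in place of 0.98. Free RNA in the kept barcodes is not removed by either setting.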

How the data were processed

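The deposited values are raw counts of UMIs, by gene and barcode, per the file headers, for 1 control and 1 progesterone library. The submitters' processing notes name Cell Ranger 3.0.2 and mm10 without their roles. Filters beyond that, and the treatment of shared reads, are not given in the sources used here. Members were selected by the stated limits, summed per library and scaled to CPM (Python 3.11.15, numpy 2.4.6, scipy 1.17.1). Intervals are exact: conditional binomial for ratios, Poisson for levels and Clopper-Pearson for shares. List medians use log2 ratios with 0.5 counts added, over genes with at least 20 UMIs. The calculation was tested on simulated data.

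The members and gene lists were chosen with earlier results of these data known. The lists were macrophage identity, resident, antigen presentation, activation, alternative state, lipid and phagosome, monocyte, interferon, steroid, early response and proliferation genes, besides markers of other cells. A glycolysis list was added after the values were seen. Genes named were the 6 markers, in each list the 4 with most UMIs and the 2 highest and 2 lowest, and over all genes the 10 highest and 10 lowest, by the interval bound nearest to 1 and with at least 50 UMIs where higher. Other list genes are named by role, with their values known. Of the listed genes 2 count in the list values but are not reported here by name.

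Doublets were kept; Scrublet (scanpy 1.11.5) marked 6 control and 15 progesterone members, which were left out as an alternative. Squamous barcodes (Krt5 and Krt14 at least 20 UMIs, no C1q) numbered 2470 and 3968. Neutrophils had at least 10 UMIs of S100a8 and S100a9, a Csf3r UMI and fewer than 3 of C1q. Gene positions are from GENCODE mouse release M21 (GRCm38), which held 31011 of 31053 identifiers. In all 13 other settings, and 5 chosen after seeing the data, were run.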

Additional observations from a re-analysis of the deposited data

Results flagged for a closer look

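C1q barcodes with at least 10 UMIs of Muc5b, Tff1 and Agr2, which the rule kept out, numbered 39 in the progesterone library and 0 in the control, and were singled out as a signal in barcodes that the comparisons do not use. The 39 were 0.423% (0.301 to 0.578) of 9221 barcodes, whereas 0 of 4760 in the control allows a share of up to 0.0630% by the limit of 3 counts, or 0.0775% by the exact interval. Their median depth was 6134 UMIs, and 16 of them were also over the keratin limit.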

How the results depend on the processing

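Of 76 named genes 60 kept the sign of their log2 ratio under all alternatives that gave a value. The antigen presentation median stayed between 0.28 and 0.61 under 15 alternatives, and the glycolysis median between −1.55 and −1.23. Depth limits most genes: only 1506 had at least 50 UMIs. Settings without mucous UMIs, with at least 1000 UMIs per member, or without hemoglobin or Retnla barcodes were chosen after seeing the data. The cause of these changes was not tested.

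The count of genes at least 2-fold higher was 35 with no keratin UMI, 27 with no mucous UMI, 20 with at least 100 UMIs per gene and 954 with no filter on low counts. The count at least 2-fold lower was 81 with at least 10 C1q UMIs, 78 with at least 500 genes, 81 without mitochondrial, ribosomal and the top 20 genes, 58 with median-of-ratios scaling, 48 with at least 100 UMIs and 3210 with no filter. The resident median was −1.29 with no keratin UMI and −0.99 as a mean over barcodes. The share of barcodes that were macrophages was 1.47% in the control and 1.43% with progesterone with no keratin UMI, 1.93% and 1.54% with at least 10 C1q UMIs, and 1.76% and 1.25% at 1000 or more UMIs. The progesterone share was 2.88% at most 10% mitochondrial UMIs, 1.41% with at least 500 genes and 1.37% with no mucous UMI.

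Among log2 ratios that changed sign, Retnla was −0.15 with no keratin UMI and −0.72 without Retnla barcodes. Cxcl2 was −0.44 with at least 10 C1q UMIs, −0.83 without neutrophil RNA and −0.23 with no mucous UMI. With at least 10 C1q UMIs Hba-a1 was −1.96, Hba-a2 −3.05, Hbb-bs −2.50 and Plac8 −0.88. Muc5b was −0.14 with no mucous UMI.

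With at least 10 C1q UMIs the share with Ccl17 was 2.74% in the control and 0% with progesterone, and that with Ccl8 0% in the control. Thinned to 2000 UMIs the control shares were 0% for Retnla, 0% for Ccl8, 36.8% for Spp1 and 47.4% for Fabp5, and the progesterone share for Ccl8 was 10.1%. The progesterone share with Retnla was 1.49% with no keratin UMI, and both Retnla shares were 0% without Retnla barcodes. The progesterone share with Spp1 was 0% without neutrophil RNA and 0% with no mucous UMI. The class II positive share with progesterone was 96.7% with at least 10 C1q UMIs and 94.2% thinned to 2000. The resident positive share was 0% in the control when thinned to 2000 and without Retnla barcodes, and 0% with no keratin UMI and 0.917% without Retnla barcodes in the progesterone library. No paired analysis was possible because each group is 1 library, and for the same reason no replicate could be left out.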

Other observations

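Genes of sugar breakdown, a list chosen after the values were seen, were lower in progesterone members. All 13 with at least 20 UMIs had log2 ratios below 0, with a median of −1.45, beside 65.4% of all genes below 0 and a median of −0.23. Of 9 with at least 50 UMIs 8 were at least 2-fold lower, beside 8.1% of all genes. The list summed to 7342 CPM in control and 2788 CPM in progesterone members, and to 6214 and 2235 CPM in squamous barcodes. Pkm, the last kinase of glycolysis, had 197 and 102 UMIs and was 3.33 times (2.61 to 4.27) higher in control members, Pgk1, another kinase of the pathway, 3.86 times (2.66 to 5.70) and Aldoa, the aldolase, 3.05 times (2.35 to 3.97). Neutrophils had Pkm at 1346 and 1178 CPM. Whether free squamous RNA had a part was not tested. Among the lowest genes over all, Mif, a cytokine, was 3.45 times (2.75 to 4.35) higher in the control. Lgals1, the gene of galectin 1, was 3.55 times (2.79 to 4.54) higher there on 212 and 103 UMIs, with 23.5 and 23.4 CPM in squamous barcodes. Capg, an actin capping protein, was 4.70 times higher in the control on 79 and 29 UMIs, and AA467197 6.21 times on 72 and 20.

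Of 12 interferon response genes with at least 20 UMIs 8 had log2 ratios above 0 and 4 below, with a median of 0.64, where 34.6% of all genes were above 0. Of 5 with at least 50 UMIs 2 were at least 2-fold higher with progesterone, beside 3.65% of all genes. The list summed to 1527 CPM in control and 1957 CPM in progesterone members, a ratio of 1.28 (1.12 to 1.46). It was also higher with progesterone in squamous barcodes, at 84.0 and 222 CPM, so the difference was not particular to members. Isg15 had 16 and 72 UMIs, a ratio of 2.61 (1.5 to 4.81), the transcription factor gene Irf7 11 and 53, a ratio of 2.79 (1.44 to 5.93), and Bst2, which tethers viruses, 27 and 85, a ratio of 1.82 (1.17 to 2.93). Ifit3 had 2 and 32 UMIs in 2 and 14 barcodes. Monocyte genes were split: the monocyte chemokine receptor gene Ccr2 had 88 and 67 UMIs and was 2.27 times (1.63 to 3.16) higher in the control, whereas Plac8 had 9 and 38 UMIs in 5 and 9 barcodes. The median log2 ratio of the 6 monocyte genes that reached 20 UMIs was 0.98, or −0.68 without members with a mucous UMI, and the list's sum a ratio of 0.709 (0.592 to 0.85). Of 5 proliferation genes 4 had log2 ratios below 0, with a median of −1.34, where 65.4% of all genes were below. That median depended on the setting: it was −0.0021 with no keratin UMI and −0.28 as a mean over barcodes. Over all genes the median was −0.25 and −0.29 in these settings. Mki67 had 40 UMIs in 13 control and 21 in 10 progesterone barcodes, with 117 and 60.1 CPM in squamous barcodes. The 10 early response genes that tissue dissociation can induce had a median log2 ratio of −0.09. Of these 3 were above 0 and 7 below, a split near that of all genes, of which 65.4% were below. The immediate early gene Junb had a ratio of 2.00 (1.23 to 3.38). Steroid receptor genes were at the edge of detection. Pgr had 0 and 2 UMIs and Esr1 0 and 6, and the glucocorticoid receptor gene Nr3c1 17 and 36. The median of the 5 steroid genes that reached 20 UMIs was −0.72, with the metallothionein Mt1 2.21 times (1.73 to 2.83) higher in the control on 155 and 121 UMIs and at 517 and 230 CPM in squamous barcodes.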
